A study of Mus musculus with 2 samples.

Results

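Collagen crosslinking and hydroxylation enzymes were examined in cultured mouse FAPs (fibro-adipogenic progenitors), stromal cells of muscle that give rise to adipocytes and to matrix-producing fibroblasts. The group holds 10 genes, chosen by name: the lysyl oxidases Lox, Loxl1, Loxl2, Loxl3 and Loxl4, the lysyl hydroxylases Plod1 and Plod2, the prolyl 4-hydroxylase alpha subunits P4ha1 and P4ha2, and the collagen chaperone gene Serpinh1. All 10 were found among the 44291 genes of the files, and all 10 had a mean level of at least 1 FPKM (fragments per kilobase of exon, scaled to the assigned reads of a library), as did 13401 genes in all. The study compared 1 library of wild-type FAPs given platelet-rich plasma (PRP) with 1 library of wild-type FAPs given vehicle (control). Both cultures were then kept in adipogenic induction medium that held insulin (10 μg/ml), dexamethasone (0.25 μM), IBMX (0.5 mM) and FBS (20%). Per the methods of the study, FAPs came from hind limb muscle by antibody staining and cell sorting, and young adult C57BL/6 mice and an induction of at most a few days were used in the study. The text of the study describes FAPs given exosomes that had been prepared from PRP of young people, whereas the labels name PRP itself, and the labels are followed here. They do not state the age or the time for these libraries. With 1 library per group no difference had a replicate check, and no p-value was computed.

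Collagen chains are modified before and after they leave the cell. In the endoplasmic reticulum, prolyl 4-hydroxylases hydroxylate prolines, which makes the triple helix stable at body temperature, lysyl hydroxylases hydroxylate lysines, and the chaperone HSP47, encoded by Serpinh1, holds the folded helix until it is exported. Outside the cell, lysyl oxidases turn lysines and hydroxylysines into aldehydes, from which the covalent crosslinks of collagen and elastin form. In muscle these enzymes are known from FAPs and other fibroblasts, where they accompany matrix deposition and stiffening.

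The results showed that 9 of the 10 genes were lower in the PRP library and that Loxl4 was higher. Among all genes tested, 49.1% were lower. The median difference of the 10 genes was -0.41 on the log2(FPKM + 1) scale, PRP minus control, whereas that of all genes tested was 0.01, and 95% of those genes lay between -0.74 and 0.89. The summed level of the 10 genes was 877.6 FPKM in the control library and 669.7 FPKM in the PRP library, a ratio of 0.763. In bulk RNA, fewer cells that express a gene and less of its RNA per cell cannot be told apart.

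**Figure D1:**
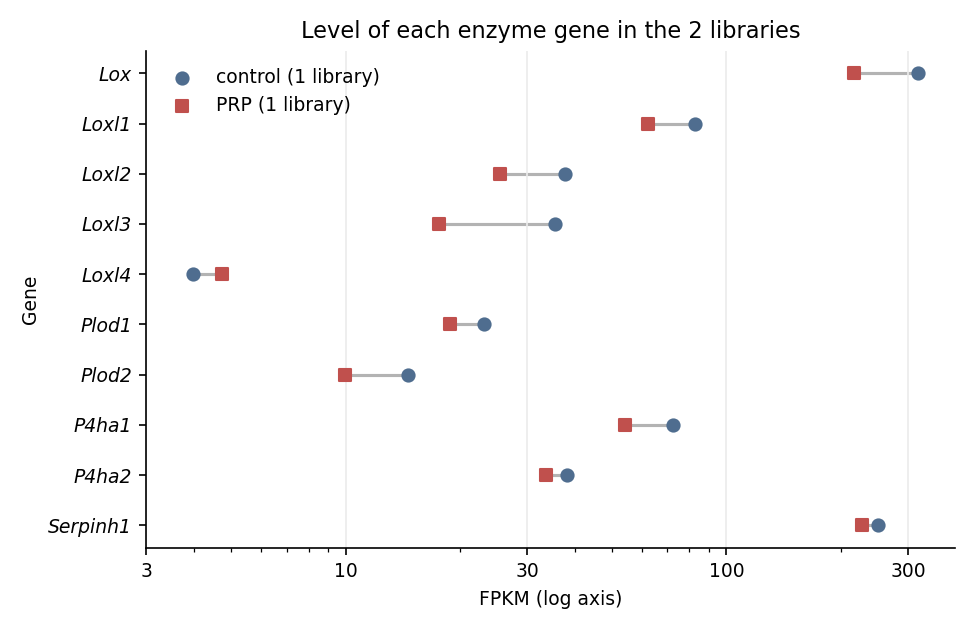
FPKM of each enzyme gene (log axis) in the control library (blue circles) and the PRP library (red squares), 1 library each, joined by a grey line. The squares lie to the left of the circles for 9 genes and to the right for Loxl4 (3.98 FPKM in the control library, 4.73 FPKM in the PRP library).

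The sizes of the differences were moderate. No member reached a 2-fold difference on the log2(FPKM + 1) scale in either direction, where 0.828% of all genes tested were at least 2-fold lower and 2% at least 2-fold higher. At 1.5-fold, Loxl3 was lower and no member was higher, against 4.57% and 6.15% of all genes tested. Whole reads could be worked out from the FPKM values of all 10 genes, and each ratio below is given with its exact 95% interval for counting error. The interval lay below 1 for 9 members and above 1 for Loxl4. Among the 12367 genes tested that had such an interval, it lay below 1 for 26.1% and above 1 for 26.2%, so that at this depth (34139741 assigned reads in the control library and 40120843 with PRP) small differences also pass counting error. The intervals compare the 2 libraries, cover counting error only and say nothing of the spread between cultures.

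The lysyl oxidases are copper-dependent amine oxidases, and Lox, the founding member, was the most abundant of the 10 genes in the control library. Lox (ENSMUSG00000024529, chromosome 18, 52516067 to 52529867, minus strand, mm10) was at 319.6 FPKM in the control library and 216.3 FPKM in the PRP library, from 52126 and 41470 reads. Its ratio was 0.677 (95% interval 0.665 to 0.689). Lox was thus lower by 32.3%, and 5.13% of all genes tested had a log2 difference as low or lower. Loxl1, which is known for its part in elastic fibre assembly (ENSMUSG00000032334, chromosome 9, 58287738 to 58313186, minus strand), was at 82.5 FPKM in the control library and 62.1 FPKM in the PRP library. The ratio of Loxl1 was 0.753 (0.722 to 0.785), nearer to no change than that of Lox, and the intervals of both genes did not overlap.

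Loxl2 and Loxl3 belong to the branch of the family that carries scavenger receptor domains. Loxl2 (ENSMUSG00000034205, chromosome 14, 69609068 to 69695834, plus strand), whose enzyme also crosslinks basement membrane collagen, had 37.7 FPKM in the control library and 25.5 FPKM in the PRP library. Its ratio of 0.675 (0.642 to 0.710) was close to that of Lox, and 5.35% of all genes tested were as low or lower. Loxl2 shares 5.70% of its exon bases with Mir6950 and Gm27177. Loxl3 (ENSMUSG00000000693, chromosome 6, 83034173 to 83052562, plus strand) had 35.5 FPKM in the control library and 17.5 FPKM in the PRP library, from 5584 and 3240 reads. Its ratio was 0.494 (0.464 to 0.525), further from 1 than that of the other 9 genes. Although this ratio alone is past 2-fold, Loxl3 differed by -0.98 on the log2(FPKM + 1) scale, and 0.940% of all genes tested were as low or lower. Loxl3 shares 11.6% of its exon bases with Htra2, a mitochondrial protease gene on the opposite strand, which was higher in the PRP library (7.70 FPKM) than in the control library (6.26 FPKM). Whether the reads were assigned by strand is not stated in the sources used here.

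Loxl4 (ENSMUSG00000025185, chromosome 19, 42593982 to 42612813, minus strand), the remaining member of the scavenger receptor branch, went the other way. It had 3.98 FPKM in the control library and 4.73 FPKM in the PRP library, the lowest level among the 10 genes in both. The ratio of Loxl4 was 1.19 (1.02 to 1.39), from 572 and 800 reads. Its interval came close to no change, and 74.2% of all genes tested had a log2 difference as low or lower.

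**Figure D2:**
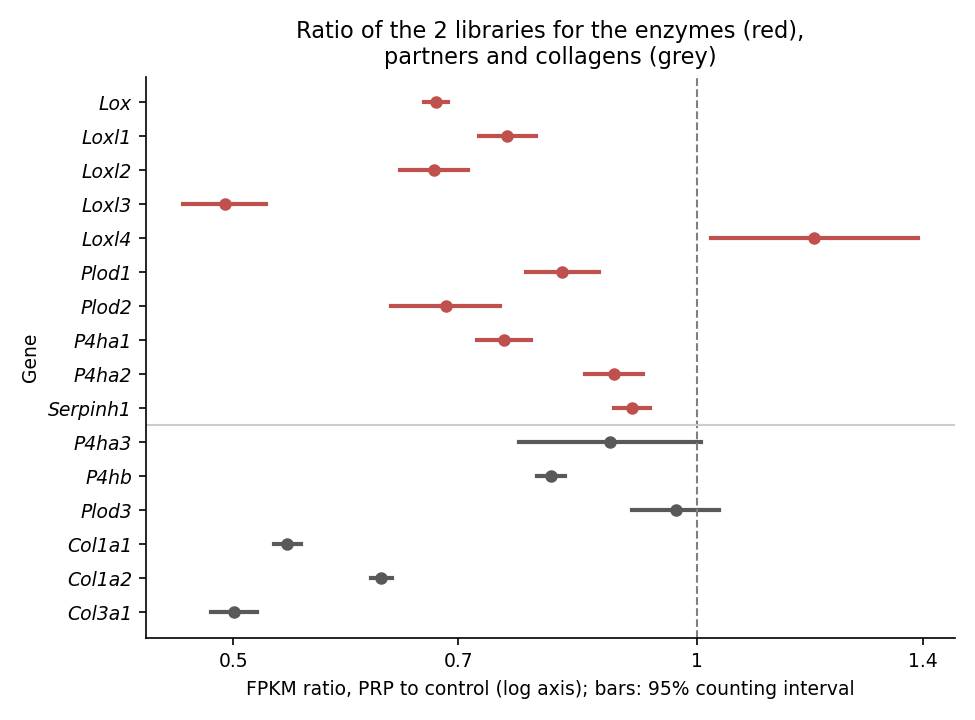
FPKM ratio of the PRP library to the control library (log axis) with its 95% counting interval, for the 10 enzyme genes in red and for P4ha3, P4hb, Plod3 and the main fibrillar collagen genes in grey. The dashed line marks no change. Loxl4 (1.19) lies to the right of it, and Loxl3 (0.494) lies beside Col3a1 (0.501).

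Because FPKM is per length, the levels of the 5 lysyl oxidases can be set against each other. Their summed level was 479.3 FPKM in the control library and 326.2 FPKM in the PRP library (ratio 0.681). Lox held 66.7% of the sum in the control library and 66.3% in the PRP library, and Loxl2 held 7.87% and 7.81%. The make-up was thus similar for these genes, while the share of Loxl3 was 7.41% in the control library and 5.38% in the PRP library. Loxl1 held 17.2% and 19.1%, and Loxl4 held 0.830% and 1.45%.

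The lysyl hydroxylases use iron, 2-oxoglutarate and ascorbate. The enzyme encoded by Plod1 acts mainly on lysines of the triple helix. Plod1 (ENSMUSG00000019055, chromosome 4, 147909753 to 147936767, minus strand) was at 23.1 FPKM in the control library and 18.9 FPKM in the PRP library, a ratio of 0.817 (0.774 to 0.863). The enzyme encoded by Plod2 hydroxylates lysines of the telopeptides at the chain ends and so directs crosslinks to the stable kind that is typical of scar tissue. Plod2 (ENSMUSG00000032374, chromosome 9, 92542223 to 92608428, plus strand) had 14.5 FPKM in the control library and 9.99 FPKM in the PRP library, a ratio of 0.687 (0.633 to 0.745). The intervals of Plod1 and Plod2 did not overlap, Plod2 being the lower, and 6.75% of all genes tested were as low as Plod2 or lower against 16.9% for Plod1. Plod2 shares 6.42% of its exon bases with B430319G15Rik. Plod3, the third lysyl hydroxylase, whose enzyme also adds sugars to hydroxylysine, is not one of the 10 genes and had 22.3 FPKM in the control library and 21.6 FPKM in the PRP library. The interval of its ratio of 0.968 (0.907 to 1.03) included no change. Accordingly, Plod3 held 37.2% of the summed level of the family in the control library and 42.8% in the PRP library, whereas the share of Plod2 was 24.3% and 19.8%, and that of Plod1 was 38.5% and 37.4%.

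The prolyl 4-hydroxylases are tetramers of catalytic alpha subunits and of protein disulfide isomerase, which P4hb encodes. P4ha1 (ENSMUSG00000019916, chromosome 10, 59323296 to 59373304, plus strand) had 72.2 FPKM in the control library and 54.1 FPKM in the PRP library, a ratio of 0.749 (0.719 to 0.780). P4ha2 (ENSMUSG00000018906, chromosome 11, 54100095 to 54131665, plus strand) had 38.2 FPKM in the control library and 33.7 FPKM in the PRP library, a ratio of 0.883 (0.845 to 0.922). The difference was larger for P4ha1 than for P4ha2, with intervals that did not overlap, and 9.53% and 26.4% of all genes tested were as low or lower. P4ha3, an alpha subunit gene outside the 10, had 7.92 FPKM in the control library and 6.96 FPKM in the PRP library, and the interval of its ratio (0.878, 0.766 to 1.01) included no change. P4ha1 held 61.04% of the alpha subunit sum in the control library and 57.1% in the PRP library, and P4ha2 held 32.3% and 35.6%. The partner gene P4hb (chromosome 11, 120560298 to 120573253) had 394.9 FPKM in the control library and 317.4 FPKM in the PRP library (ratio 0.804, 0.787 to 0.820), well above the alpha subunits in both libraries.

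**Figure D3:**
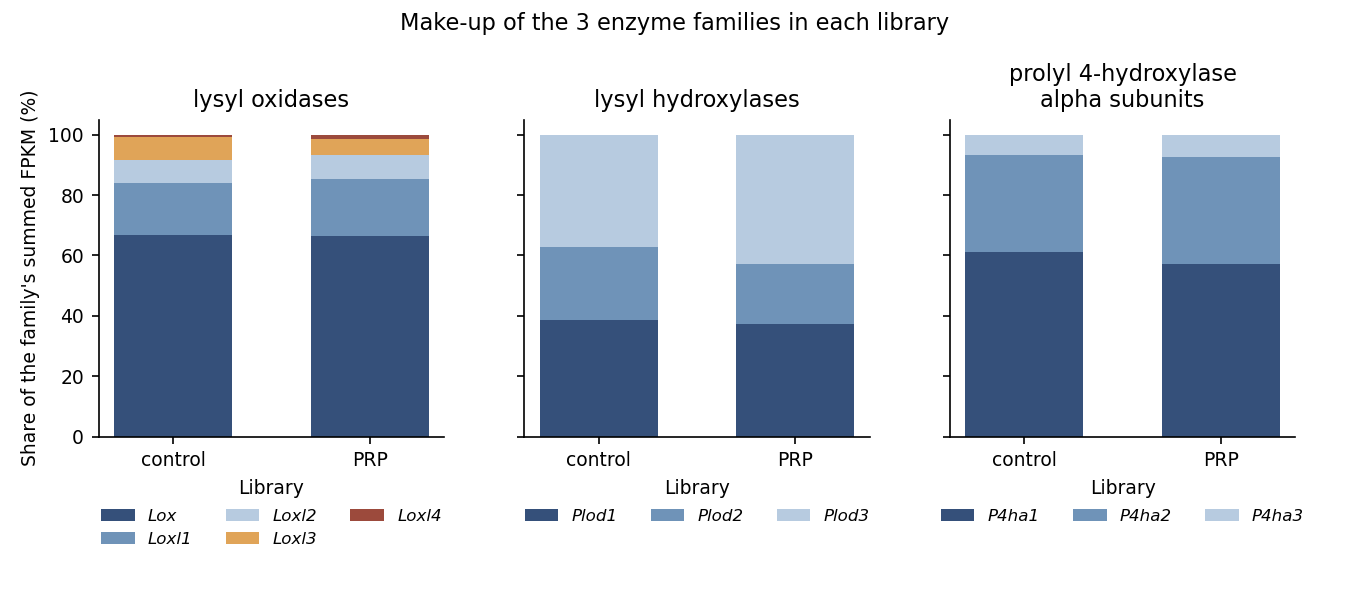
Share of the summed FPKM that each gene held within the lysyl oxidases, the lysyl hydroxylases and the prolyl 4-hydroxylase alpha subunits, as stacked bars for the control and PRP libraries. Lox holds 66.7% and 66.3% of its family, and the share of Plod3 is 37.2% in the control library and 42.8% in the PRP library.

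Serpinh1 (ENSMUSG00000070436, chromosome 7, 99345376 to 99353239, minus strand) differed least among the 9 lower genes. It had 250.3 FPKM in the control library and 226.9 FPKM in the PRP library, a ratio of 0.906 (0.883 to 0.931). Its log2 difference was -0.14, and 30.6% of all genes tested were as low or lower. Serpinh1 was second to Lox in the control library and first in the PRP library, as Lox was lower there by more. The order of levels in the control library was Lox, Serpinh1, Loxl1, P4ha1, P4ha2, Loxl2, Loxl3, Plod1, Plod2 and Loxl4, in which the exact Poisson intervals of neighbours overlapped for P4ha2 with Loxl2 and for Loxl2 with Loxl3. In the PRP library Plod1 stood before Loxl3, with intervals that overlapped. The highest of the 10 levels was 80.4 times the lowest in the control library and 47.9 times in the PRP library.

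Next, regulatory sequences of the genes were examined. The promoter table from RefSeq (GRCm38.p6, 250 bases before to 50 bases after the start of each gene) held 5 of the 10 genes, namely Plod1, Serpinh1, P4ha1, P4ha2 and Loxl4. The RefSeq start of P4ha2 lies downstream of the GENCODE start of the span given above, so its window lies inside that span. Several of these enzymes are known as targets of the hypoxia-inducible factors. ACGTG, a form of the core of the hypoxia response element, was therefore searched on both strands. It was present in 19.6% of 32851 promoters of the same length. P4ha2 held 2 matches on its own strand, and P4ha1 and Serpinh1 held 1 each on the other strand. Plod1 and Loxl4 held no match to ACGTG in this window. The form GCGTG was not searched, and the promoters of Plod1, P4ha1, P4ha2 and Loxl4 contain it on either strand. The promoters of the prolyl 4-hydroxylase subunits P4ha1 (chr10:59323046-59323345, plus strand) and P4ha2 (chr11:54100674-54100973, plus strand), which hold matches, are shown with that of Loxl4 (chr19:42612757-42613056, minus strand), the gene that was higher. They are written 5′ to 3′ with the matches in capitals, where CACGT is ACGTG on the other strand.
P4ha1: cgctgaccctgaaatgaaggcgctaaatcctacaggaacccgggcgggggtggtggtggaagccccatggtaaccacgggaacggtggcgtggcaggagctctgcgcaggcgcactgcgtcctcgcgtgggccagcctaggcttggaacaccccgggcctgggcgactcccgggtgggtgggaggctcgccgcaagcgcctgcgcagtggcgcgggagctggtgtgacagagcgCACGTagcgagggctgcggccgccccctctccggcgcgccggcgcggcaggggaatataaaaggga
P4ha2: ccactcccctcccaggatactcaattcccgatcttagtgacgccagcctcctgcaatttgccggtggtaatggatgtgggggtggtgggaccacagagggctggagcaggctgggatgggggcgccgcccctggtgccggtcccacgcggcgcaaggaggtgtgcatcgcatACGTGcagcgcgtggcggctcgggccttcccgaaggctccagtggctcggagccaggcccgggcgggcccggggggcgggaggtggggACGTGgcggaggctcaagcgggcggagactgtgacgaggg
Loxl4: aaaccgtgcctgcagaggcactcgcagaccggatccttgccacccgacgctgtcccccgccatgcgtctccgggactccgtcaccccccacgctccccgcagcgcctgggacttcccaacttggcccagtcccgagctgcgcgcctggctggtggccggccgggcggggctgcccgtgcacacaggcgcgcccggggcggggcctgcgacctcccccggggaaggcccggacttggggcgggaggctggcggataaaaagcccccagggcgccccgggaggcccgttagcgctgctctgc

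A match is a description of the letters and not of a site in use. On the level of expression, other targets of the hypoxia-inducible factors were also compared. Of 16 such genes tested, 9 were lower with PRP and 7 higher, and the median was -0.02 (all genes tested, 0.01). None of the 16 was 1.5-fold different on the log2(FPKM + 1) scale, where the differences ranged from -0.52 to 0.34, although the FPKM ratio of Pdk1, a gene of low level, was 0.634 (0.548 to 0.732).

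The study names the human microRNAs let-7f and miR-16 as exosome cargo. To see whether the genes carry matches to their seeds, the longest annotated 3′UTR of each gene was searched for the 7 bases that pair with bases 2 to 8 of the microRNA. The mature mouse sequences from RefSeq (GRCm38.p6) are shown with the seed in capitals.
mmu-let-7f-5p: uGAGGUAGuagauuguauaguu
mmu-miR-16-5p: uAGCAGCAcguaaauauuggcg

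No member held the let-7 match CTACCTC, which 11.2% of 10365 tested genes with a 3′UTR held. The miR-16 match TGCTGCT was held by 3 of the 10 members (30%) and by 27.1% of the tested genes. These members were Loxl2 (chr14:69694023-69694029, base 904 of a 3′UTR of 2715 bases), P4ha1 (chr10:59371491-59371497, base 417 of 2230) and P4ha2 (chr11:54111120-54111126, base 22 of 974), all on the plus strand. The match of Loxl2 lies in 1 of its 2 annotated 3′UTRs and that of P4ha2 in 1 of its 5, whereas that of P4ha1 lies in all 3. The match of P4ha2 also lies well before the end of its gene span (54131665), so most annotated P4ha2 3′UTRs lack it. Which 3′UTRs the cells used was not tested. The 30 bases around each match are shown as mRNA sense DNA letters with the match in capitals.
Loxl2: ttacccttctcTGCTGCTctaaacctgtac
P4ha1: agacgccagtgTGCTGCTcttccgatgtgt
P4ha2: taagtcatcccTGCTGCTcctcttccccag

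The 3 genes with a miR-16 match had ratios of 0.675, 0.749 and 0.883, and the other lower genes, without one, had ratios from 0.494 (Loxl3) to 0.906 (Serpinh1). The 2 sets of values thus overlapped.

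To place the enzymes among the other steps of collagen production, a list of 36 further collagen maturation genes was compared, of which 30 had a mean of at least 1 FPKM. With PRP, 24 of the 30 were lower and 6 were higher (median -0.26). Counting intervals were available for 29 of them and lay below 1 for 19 and above 1 for 3, against 26.1% and 26.2% of all genes with an interval. At least 1.5-fold lower on the log2(FPKM + 1) scale (4.57% of all genes tested) were Sec23a, Postn and Pcolce. Sec23a, a coat protein gene for vesicles that carry cargo from the endoplasmic reticulum, had 14.9 FPKM in the control library and 5.93 FPKM in the PRP library (ratio 0.398, 0.360 to 0.440). Postn, which encodes the matrix protein periostin, had 272.9 and 168.5 FPKM (ratio 0.617, 0.608 to 0.627). Pcolce, an enhancer of procollagen processing, had 36.1 and 22.5 FPKM (ratio 0.622, 0.585 to 0.663). At least 1.5-fold higher on that scale (6.15% of all genes tested) were Tgm2 and Tll1. Tgm2, which encodes transglutaminase 2, a crosslinking enzyme that works independently of lysyl oxidases, had 10.9 FPKM in the control library and 24.8 FPKM in the PRP library (ratio 2.27, 2.10 to 2.46). Tgm2 shares 21.8% of its exon bases with other genes. Tll1, a procollagen C-proteinase gene related to Bmp1, had 0.604 and 1.53 FPKM (ratio 2.53, 1.95 to 3.30). Bmp1 itself was at a higher level and went the other way, with 12.3 FPKM in the control library and 8.39 FPKM in the PRP library (ratio 0.681, 0.636 to 0.730).

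**Figure D4:**
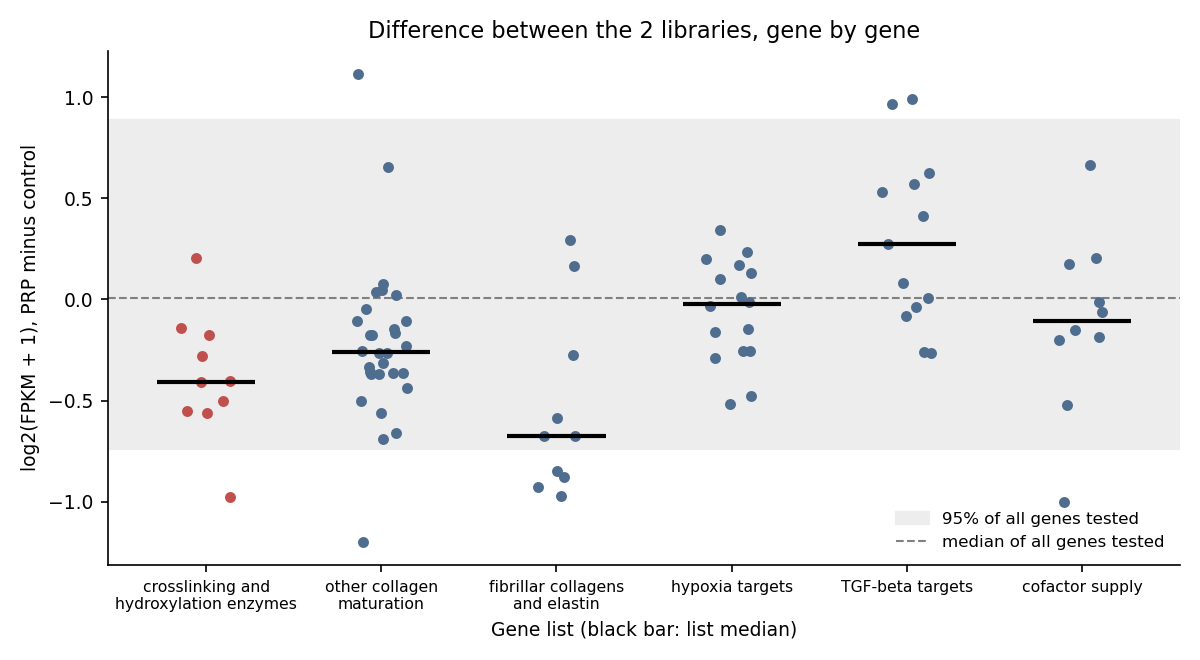
Difference of log2(FPKM + 1), PRP minus control, for each tested gene of the enzyme group (red) and of 5 further lists (blue), with the list median as a black bar. The grey band holds 95% of all genes tested (-0.74 to 0.89) and the dashed line is their median (0.01). The medians are -0.41 for the enzymes, -0.26 for other collagen maturation genes, -0.67 for fibrillar collagens and elastin, -0.02 for hypoxia targets, 0.27 for TGF-β targets and -0.11 for cofactor supply.

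By the median of the log2 differences, the substrates differed by more than the enzymes. By summed level this was not so. All fibrillar collagen genes together had 982.9 FPKM in the control library and 779.9 FPKM in the PRP library (ratio 0.794). The summed ratio of the 10 enzymes was 0.763. Of 10 tested fibrillar collagen genes, 8 were lower with PRP and 2 were higher (median -0.67). At least 1.5-fold lower on the log2(FPKM + 1) scale were 6 of the 10, against 4.57% of all genes tested. Elastin (Eln) was below the filter with 0.687 and 0.323 FPKM. Col1a1, the main chain of type I collagen, had 218.7 FPKM in the control library and 118.6 FPKM in the PRP library (ratio 0.542, 0.531 to 0.553). Col1a2, its partner chain, had 174.5 and 108.9 FPKM (ratio 0.624, 0.614 to 0.634). Col3a1, the chain of type III collagen, had 53.7 and 26.9 FPKM (ratio 0.501, 0.484 to 0.518). Among the others, Col11a1 had a ratio of 0.534 and Col24a1 a ratio of 0.378. The exception with the highest level was Col5a2, with 386.3 FPKM in the control library and 433.1 FPKM in the PRP library, which was singled out after its values were seen.

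Set against the sum of Col1a1, Col1a2 and Col3a1, which was 446.9 FPKM in the control library and 254.4 FPKM in the PRP library, 9 of the 10 enzyme genes were higher in the PRP library and Loxl3 was lower. The sum itself had a ratio of 0.569, so any gene with a ratio above that counts as higher. Only 4.57% of all genes tested were at least 1.5-fold lower on the log2(FPKM + 1) scale. Most genes would thus count as higher too, and the count of 9 is not particular to the enzymes. Lox amounted to 71.5% of that sum in the control library and 85.04% in the PRP library. Serpinh1 amounted to 56.0% and 89.2%, and P4ha2 to 8.54% and 13.2%. Loxl3 amounted to 7.95% and 6.90%. This order depended on the denominator. Set against the sum of all 11 fibrillar collagen genes, to which Col5a2 contributes more than any other gene, 4 of the 10 were higher (Loxl4, Plod1, P4ha2 and Serpinh1) and 6 were lower. That sum had a ratio of 0.794. The share of all genes that would be higher was not computed for either denominator.

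Genes that respond to TGF-β, which is known to induce Lox and collagens in fibroblasts, were also compared. Of 13 tested targets 9 were higher with PRP and 4 lower (median 0.27). Their counting intervals lay above 1 for 7 and below 1 for 3, against 26.2% and 26.1% of all genes with an interval. Acta2, which encodes smooth muscle actin, had 286.1 FPKM in the control library and 570.3 FPKM in the PRP library (ratio 1.99, 1.95 to 2.04). Tgif1, which encodes a transcriptional repressor, had 3.25 and 5.55 FPKM (ratio 1.71, 1.49 to 1.96). No tested gene of this list was 1.5-fold lower. Tgfbi, which was below the filter, had 0.994 and 0.225 FPKM (ratio 0.226, 0.124 to 0.391). A part of TGF-β in the values of the enzymes was not tested.

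Markers of cell types were compared in the same libraries. The 5 FAP markers were all lower with PRP, with a summed level of 239.3 FPKM in the control library and 171.8 FPKM in the PRP library. Among them, Dpt, which encodes the matrix protein dermatopontin, had 50.2 and 18.8 FPKM, and Pdgfra, the receptor gene used to define FAPs, had 28.0 and 19.8 FPKM. The 5 adipocyte markers summed to 9.84 and 10.4 FPKM, and the 5 macrophage markers to 10.4 and 10.1 FPKM, with Ptprc and Adgre1 below 0.1 FPKM. Cd68 (ratio 1.98, 1.41 to 2.82) and Lyz2 (ratio 0.648, 0.512 to 0.820) went opposite ways within that sum. The 4 endothelial markers summed to 5.21 and 9.24 FPKM, with Cdh5 below 0.1 FPKM, and Kdr had 1.499 and 4.23 FPKM (ratio 2.82, 2.43 to 3.28). The 3 mural markers summed to 11.2 and 17.9 FPKM, where Myh11 had 9.86 and 16.7 FPKM, while the intervals of Rgs5 (ratio 0.962) and Cspg4 (ratio 0.864) included no change. No myogenic or platelet marker exceeded 0.567 FPKM, and Pax7, Myog, Ppbp and Gp9 were at 0. The highest tenocyte marker had 1.83 FPKM. The part of these differences in the values of the enzymes was not tested.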

How the data were processed

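Stranded mRNA libraries of 1 PRP culture and 1 control culture were sequenced. The authors trimmed the reads (fastp 0.23.4), aligned them to mm10 (STAR 2.5.3a), counted reads per gene (featureCounts) and deposited FPKM values, tools as given in the submitters' processing notes and the methods. The annotation release and strand setting of counting are not given in the sources used here. Exon lengths, positions and 3′UTRs came from GENCODE M21 (GRCm38, the same build), which held 41464 of the 44291 genes.

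The total of assigned reads per library was derived from genes with 1 read. With it, 93.7% of the genes above 0 came out as whole reads in each library, within 0.001 reads. Even numbers prevailed (79.3% and 80.3% of genes with up to 8 reads), so intervals used reads divided by 2. They are exact Clopper-Pearson 95% intervals of the PRP share, turned into a ratio of FPKM. PCR duplicates are not accounted for. The log2 difference used a pseudocount of 1, which understates the change of low genes, and a filter at a mean FPKM of 1. No count test was run, because no group had a replicate. The procedures were tested on simulated data.

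The members and lists were chosen with earlier results of these data known. Named are the 10 members, P4ha3, Plod3, P4hb, Col1a1, Col1a2 and Col3a1, and from each further list at most the 4 genes with the largest difference in each direction, from 1.5-fold. Others named were chosen after their values were seen. The values of 1 gene that the rule would name are not reported here. Alternatives were other pseudocounts, filters, scalings, thresholds, denominators and 3′UTR sets. Genes that share exons were left out in an alternative chosen after seeing the data. Python 3.11.15, NumPy 2.4.6, pandas 2.3.3, SciPy 1.17.1 and matplotlib 3.10.9 were used.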

Additional observations from a re-analysis of the deposited data

How the results depend on the processing

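Under the 7 alternatives of pseudocount, filter and scaling, all 69 values obtained for the 10 members kept their direction, Loxl4 having none where a mean FPKM of 5 was required. Loxl3 ranged from -1.01 to -0.85, Lox from -0.59 to -0.55, Serpinh1 from -0.17 to -0.14 and Loxl4 from 0.12 to 0.25. The number of members at least 2-fold lower was 0. It became 1, Loxl3, with a pseudocount of 0.1 and after rescaling without mitochondrial and the 50 most abundant genes. At the 1.5-fold threshold, 1 member, Loxl3, was at least 1.5-fold lower. The median of all genes stayed between -0.02 and 0.01. Over all genes, 111 were at least 2-fold lower and 268 higher, against 268 and 471 with a pseudocount of 0.1, 29 and 84 with a pseudocount of 5, 56 and 154 where the mean FPKM reached 5, 612 and 824 at 1.5-fold and 3 and 23 at 4-fold. The list medians of the members, the maturation genes and the collagens kept their sign, also over genes with less than 5% of exon bases in common with another gene, an alternative chosen after seeing the data, under which the median of the 7 members left was -0.28.

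By recovered fragments, not per length, Lox held 69.9% of its family in the control library and 69.99% with PRP, Plod3 held 30.1% and 35.0%, and P4ha1 held 53.05% and 49.0%. With all fibrillar collagens as the denominator, the quotient of PRP over control was below 1, not above it, for Lox (0.853), Loxl1 (0.949), Loxl2 (0.851), Plod2 (0.865) and P4ha1 (0.944), and was 0.622 for Loxl3, 1.4997 for Loxl4, 1.03 for Plod1, 1.11 for P4ha2 and 1.14 for Serpinh1. The same members held a seed match when any annotated 3′UTR was allowed to hold it. No paired analysis was possible because PRP and control have 1 library each.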

Other observations

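Genes that supply the cofactors of these enzymes, namely ascorbate, iron, copper and 2-oxoglutarate, were also compared. Of 10 tested genes 7 were lower in the PRP library and 3 were higher, with a median of -0.11. Idh2, a mitochondrial isocitrate dehydrogenase that makes 2-oxoglutarate, had 18.7 FPKM in the control library and 8.85 FPKM in the PRP library (ratio 0.473, 95% counting interval 0.421 to 0.531). Tfrc, which encodes the transferrin receptor for iron uptake, had 5.61 and 9.48 FPKM (ratio 1.69, 1.53 to 1.87). Of the copper genes, the importer gene Slc31a1 had 4.97 and 3.16 FPKM (ratio 0.635, 0.541 to 0.746), whereas for Atp7a, whose product loads copper onto secreted enzymes such as lysyl oxidases, the interval of the ratio of 0.985 (0.830 to 1.17) included no change. Slc31a1 and Atp7a were singled out after their values were seen.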
